A study of Mus musculus with 9 samples.

Results

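Hox genes encode transcription factors that bind DNA through a homeodomain. In the mouse they lie in 4 clusters, Hoxa on chromosome 6, Hoxb on chromosome 11, Hoxc on chromosome 15 and Hoxd on chromosome 2. Their members were taken as every gene of the deposited expression matrix whose symbol is Hoxa, Hoxb, Hoxc or Hoxd followed by a number from 1 to 13. Of 39 Hox genes in the RefSeq gene table, 31 were found among the 17753 genes of the matrix. These comprised 8 of cluster A, 9 of cluster B, 7 of cluster C and 7 of cluster D, and the other 8 genes are not analysed here. Of the 31, 17 reached at least 1 FPKM in at least 3 libraries and entered the tests, 6 of cluster A, 4 of cluster B, 5 of cluster C and 2 of cluster D. FPKM are sequenced fragments scaled by the length of a transcript and by how many were mapped in all.

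The 9 libraries came from brown fat, which burns fuel to make heat, from white fat, which stores lipid, and from soleus, a leg muscle used in standing, with 3 libraries per tissue. The mice were wild-type C57BL/6J males aged 3 months, with no treatment named. According to the labels 3 mice were used, with no key to which library came from which mouse, so p-values measure the spread between these libraries, and they do not name the fat depots.

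Within a cluster, genes of low number are switched on early and towards the head of the embryo, and genes of high number later and towards the tail and the ends of the limbs. This order is called collinearity, and genes with the same number in different clusters are paralogs of one group. Many adult connective tissues and muscles keep a Hox pattern from the place where they formed, and Polycomb and Trithorax proteins hold the clusters silent or active.

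The RefSeq promoter table of build GRCm38.p6 held 18 windows of Hox genes. Those of Hoxa7, Hoxa9, Hoxa10 and Hoxa11, neighbours on the minus strand of chromosome 6, are shown because levels of Hoxa7 and of the other 3 genes were ordered differently across the tissues. Each is 300 bases, 250 before and 50 after the start listed furthest upstream for the gene, written in the direction of the gene. The windows lie at chr6:52218524-52218823, chr6:52227321-52227620, chr6:52240805-52241104 and chr6:52245761-52246060. Capitals mark matches to TTTATG on either strand, the core bound by caudal type and posterior Hox proteins.
Hoxa7: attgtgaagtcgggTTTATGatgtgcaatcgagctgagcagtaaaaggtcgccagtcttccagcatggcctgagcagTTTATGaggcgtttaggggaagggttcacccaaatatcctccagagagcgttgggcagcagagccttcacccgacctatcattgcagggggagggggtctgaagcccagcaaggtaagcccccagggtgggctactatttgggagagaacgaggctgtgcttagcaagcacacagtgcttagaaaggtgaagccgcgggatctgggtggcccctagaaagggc
Hoxa9: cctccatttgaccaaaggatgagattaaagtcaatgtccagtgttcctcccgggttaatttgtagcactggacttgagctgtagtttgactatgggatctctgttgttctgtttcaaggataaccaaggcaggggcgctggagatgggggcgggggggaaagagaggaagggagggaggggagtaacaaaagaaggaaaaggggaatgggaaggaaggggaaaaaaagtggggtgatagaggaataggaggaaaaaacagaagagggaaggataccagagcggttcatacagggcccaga
Hoxa10: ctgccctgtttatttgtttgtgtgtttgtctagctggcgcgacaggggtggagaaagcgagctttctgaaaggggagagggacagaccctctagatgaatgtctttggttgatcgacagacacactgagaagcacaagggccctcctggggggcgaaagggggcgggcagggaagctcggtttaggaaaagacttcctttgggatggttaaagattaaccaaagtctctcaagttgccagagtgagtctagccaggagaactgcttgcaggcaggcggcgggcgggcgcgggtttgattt
Hoxa11: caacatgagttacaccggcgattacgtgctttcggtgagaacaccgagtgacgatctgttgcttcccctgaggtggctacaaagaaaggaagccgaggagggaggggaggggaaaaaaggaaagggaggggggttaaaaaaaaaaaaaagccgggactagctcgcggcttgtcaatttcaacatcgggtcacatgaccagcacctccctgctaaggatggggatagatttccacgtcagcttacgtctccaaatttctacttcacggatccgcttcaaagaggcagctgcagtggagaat
TTTATG occurred 2 times in the Hoxa7 window and in none of the other 3 windows. Of 32851 promoters in the table, 11.9% hold it on either strand, as do 3 of the 18 Hox windows. The CCAAT box (CCAAT) was in 9 of the 18 Hox windows and in 37.4% of all promoters, the TATA box (TATAAA) in 3 and in 13.6%, and a composite of Pbx and Hox sites (TGATNNAT) in 3 and in 8.85%. These 3 motifs had no match in the 4 windows printed, so no matches there overlap. The windows of Hoxa7, Hoxa9, Hoxa10 and Hoxa11 held 9, 4, 12 and 15 CpG dinucleotides, against a median of 14.5 over the Hox windows and 7 over all promoters. A match is a description of the letters in these windows.

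By markers, the libraries matched their labels as brown fat, white fat and skeletal muscle. Whether the markers tell soleus from another leg muscle was not tested. Brown fat markers (Ucp1, Cidea, Elovl3, Dio2) summed to 5676 to 6500 FPKM in brown fat, 5.40 to 63.2 in white fat, with 8.18 to 14.6 in soleus. White fat markers (Lep, Retn, Nnat, Agt) summed to 107 to 141, 3276 to 4642 and 20.3 to 117 FPKM in the same 3 tissues. Slow muscle markers (Myl2, Tnnc1, Myl3) summed to at most 4.88 FPKM in either fat and 18647 to 22365 in soleus, and fast muscle markers (5 genes) to 28.9 to 220 in brown fat, 1.63 to 3.74 in white fat, with 27215 to 32593 in soleus. Summed mesothelium markers (7 genes) were 1.24 to 1.46, 75.0 to 112 and 0.341 to 2.41 FPKM in brown fat, white fat and soleus, and macrophage markers (4 genes) 30.0 to 35.5, 293 to 375 and 21.7 to 29.2. In the same order, Schwann cell markers (4 genes) summed to 60.0 to 74.0, 5.01 to 6.16 and 7.60 to 41.8 FPKM, and stromal progenitor markers (3 genes) to 98.9 to 127, 689 to 898 and 205 to 274. Epididymis markers (7 genes, 5 of them listed at 0 everywhere) stayed at or below 0.270 FPKM and testis markers (4 genes) at or below 0.156. The part of these cell types in the Hox levels was not tested. In bulk tissue, fewer cells of a type and less RNA per cell cannot be told apart. Relative depth, read from the steps between low values since totals are unknown, lay between 1 and 3.57, and libraries had 8487 to 9305 genes at 1 FPKM or more. An exact 0 can be a failed estimate, since Fabp4, the fatty acid carrier of adipocytes, was listed at 0 in 6 fat libraries, and Acta1, skeletal muscle actin, in 3 soleus libraries.

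The Hox profile differed between the tissues in which stretch of the clusters carried it. Genes of paralog groups 1 to 5 held 67.8%, 65.4% and 71.8% of summed Hox FPKM in brown fat, 21.5%, 20.5% and 21.1% in white fat, with 5.15%, 5.19% and 4.62% in soleus. Groups 6 to 9 held 32.1%, 34.4% and 28.2% of it in brown fat, 78.5%, 79.4% and 78.7% in white fat, with 30.5%, 26.9% and 28.2% in soleus. Groups 10 to 13 held at most 0.142% in brown fat and 0.224% in white fat, against 64.3%, 67.9% and 67.2% in soleus. Groups 1 to 5 thus held the largest share in brown fat, groups 6 to 9 that of white fat, and groups 10 to 13 that of soleus, with no overlap between libraries of brown fat and the others in groups 1 to 5, or of soleus and the fats in groups 10 to 13. The total was 29.0, 28.9 and 31.2 FPKM in brown fat, 84.6, 72.3 and 78.1 in white fat, with 56.8, 62.0 and 61.9 in soleus. Cluster A held the largest share in brown fat, 44.3%, 39.2% and 41.5%, whereas cluster C held the largest in white fat, 62.3%, 63.0% and 60.4%, and in soleus, 63.0%, 63.3% and 65.7%. Cluster B held 24.2% to 25.7% in brown fat, 14.1% to 15.4% in white fat, with 2.00% to 2.98% in soleus, and cluster D 6.10% to 9.66% in every library. A sum over genes weighs the highest genes most, and it covers 31 genes, not the whole clusters. A share also depends on the rest of the total. Between the fats, summed FPKM of groups 1 to 5 differed less than their shares did. Brown fat libraries summed to 19.7, 18.9 and 22.4 there, white fat libraries to 18.2, 14.9 and 16.5. For groups 6 to 9 the sums were 9.32, 9.97 and 8.80 FPKM against 66.5, 57.4 and 61.5. Hoxc8 alone gave 44.5, 38.5 and 39.9 FPKM of the white fat totals. All 8 annotated genes left out lie in groups 2 to 6, and none in groups 10 to 13. No gene of group 6 was found, so groups 6 to 9 stand for groups 7 to 9 here. The sums of groups 1 to 5 and of groups 6 to 9 therefore both miss annotated genes, that of groups 10 to 13 does not. Every share rests on an incomplete total.

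**Figure D1:**
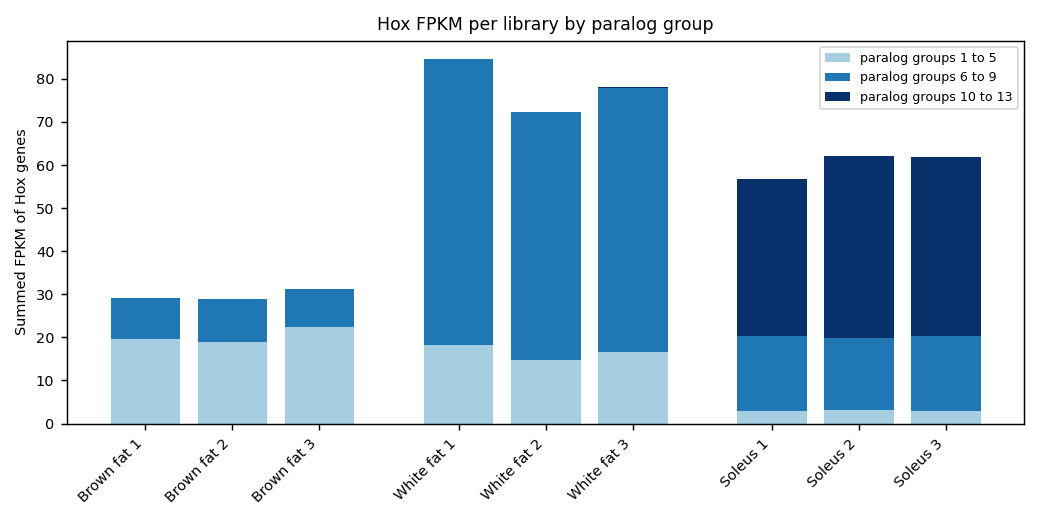
Stacked bars give summed FPKM of the 31 Hox genes in each of the 9 libraries, from 0, divided into paralog groups 1 to 5, 6 to 9 and 10 to 13. The darkest part, groups 10 to 13, is visible in the 3 soleus bars and is at most 0.224% of any fat bar.

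At a level of 1 FPKM in all 3 libraries of a tissue, brown fat had 7 Hox genes, reaching up to group 8 with Hoxc8 and Hoxd8. White fat had 10, reaching up to group 9, and soleus 10, in groups 5 to 11 with none of cluster B. At 0.1 FPKM the numbers were 14, 14 and 18 genes, reaching up to groups 9, 9 and 13. Listed at 0 in all 3 libraries were 11 genes in brown fat, 11 for white fat and 7 for soleus, among them Hoxb1, Hoxc12, Hoxd12 and Hoxd13, which were listed at 0 in all 9.

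**Figure D2:**
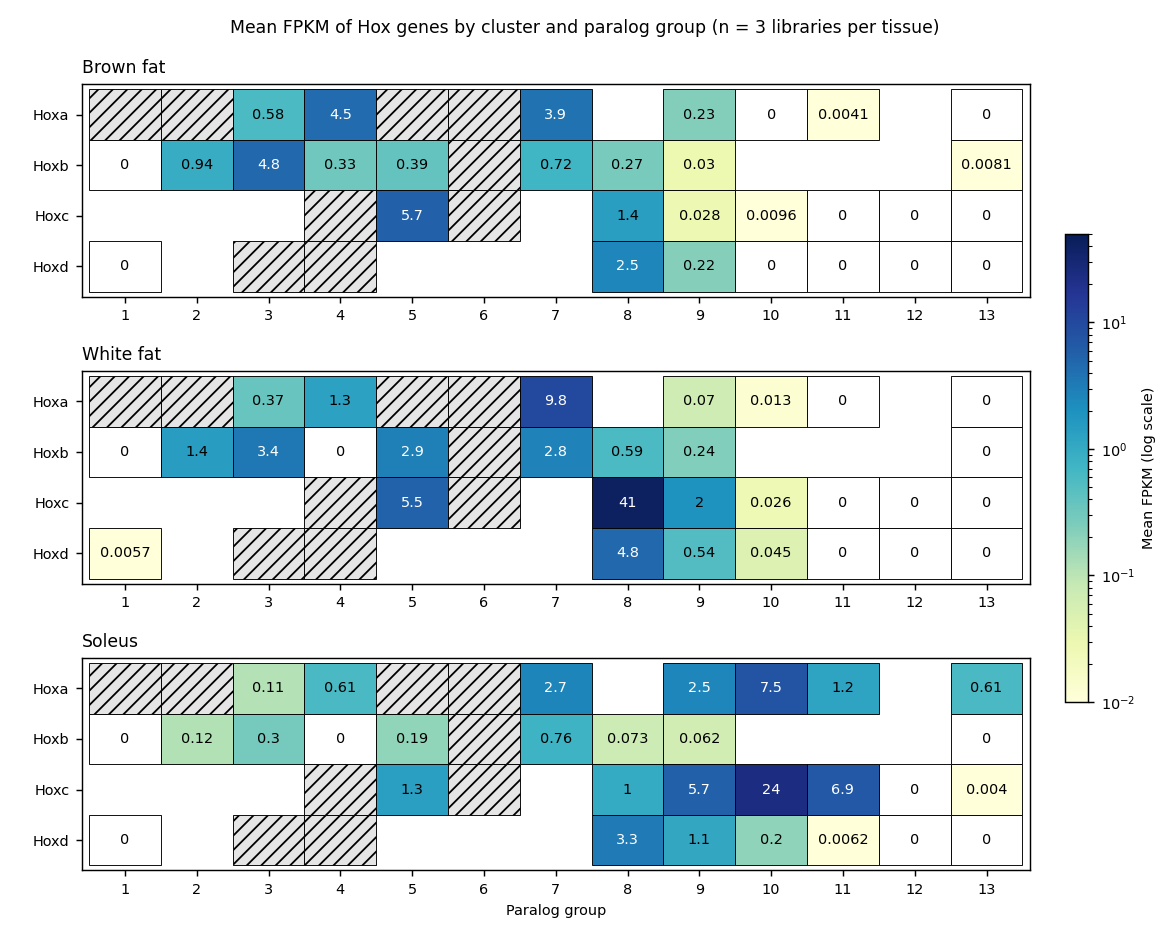
Each row of a panel is a cluster and each column a paralog group, with mean FPKM of 3 libraries printed and coloured on a log scale. A white 0 is a gene listed at 0 in every library of the tissue, hatching an annotated gene not analysed or not reported here, and a blank place no such gene. The dark squares reach up to Hoxd8 in brown fat and up to Hoxc10 and Hoxc11 in soleus, and the darkest square of white fat is Hoxc8.

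Each comparison was tested with limma on log2(FPKM + 1), over all 9913 genes that passed the filter, with calls made where the adjusted p was below 0.05. In brown against white fat, 11 of the 17 tested Hox genes were called, 4 higher and 7 lower, where 72.8% of all tested genes were called, 38.0% higher and 34.8% lower. In brown fat against soleus, 15 were called, 7 higher and 8 lower, against 78.5% of all genes, 52.9% higher and 25.6% lower. In white fat against soleus all 17 tested genes were called, 10 higher and 7 lower, against 84.2% of all genes, 54.5% higher and 29.7% lower. The median log2 fold change of the tested Hox genes was -0.02, -0.03 and 0.52 in these 3 comparisons, beside 0.03, 0.29 and 0.35 over all genes. The comparisons share libraries. Of the 17, 8 reached 1 FPKM in a single tissue, Hoxb5 and Hoxb7 in white fat and the other 6 (Hoxa9, Hoxa10, Hoxa11, Hoxc10, Hoxc11, Hoxd9) in soleus. Such a gene entered the tests through the tissue where it was high and had to differ from the others, so these counts describe the tested genes alone. Libraries of the tissues compared did not overlap for 11, 15 and 17 of the 17, where the same held for 77.4%, 81.1% and 85.6% of all tested genes.

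The scale of FPKM between tissues bears on small differences. Of all calls, 52.2% were on the brown side between brown and white fat, but 22.6% after scaling to TPM, which moved the median of all genes to -0.50. In brown fat against soleus 67.4% were higher, but 52.3%, 47.5% and 54.6% under upper quartile, median of ratios and quantile scaling, with medians of 0.04, -0.04 and 0.07. In white fat against soleus 64.7% were higher, but 78.8% with TPM, 50.1% with median of ratios and 52.3% with quantile scaling, with medians of 0.93, 0.01 and 0.04. Hox calls that such a change ended are given with the gene. All fold changes are on the log2(FPKM + 1) scale, which understates the change of low genes.

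**Figure D3:**
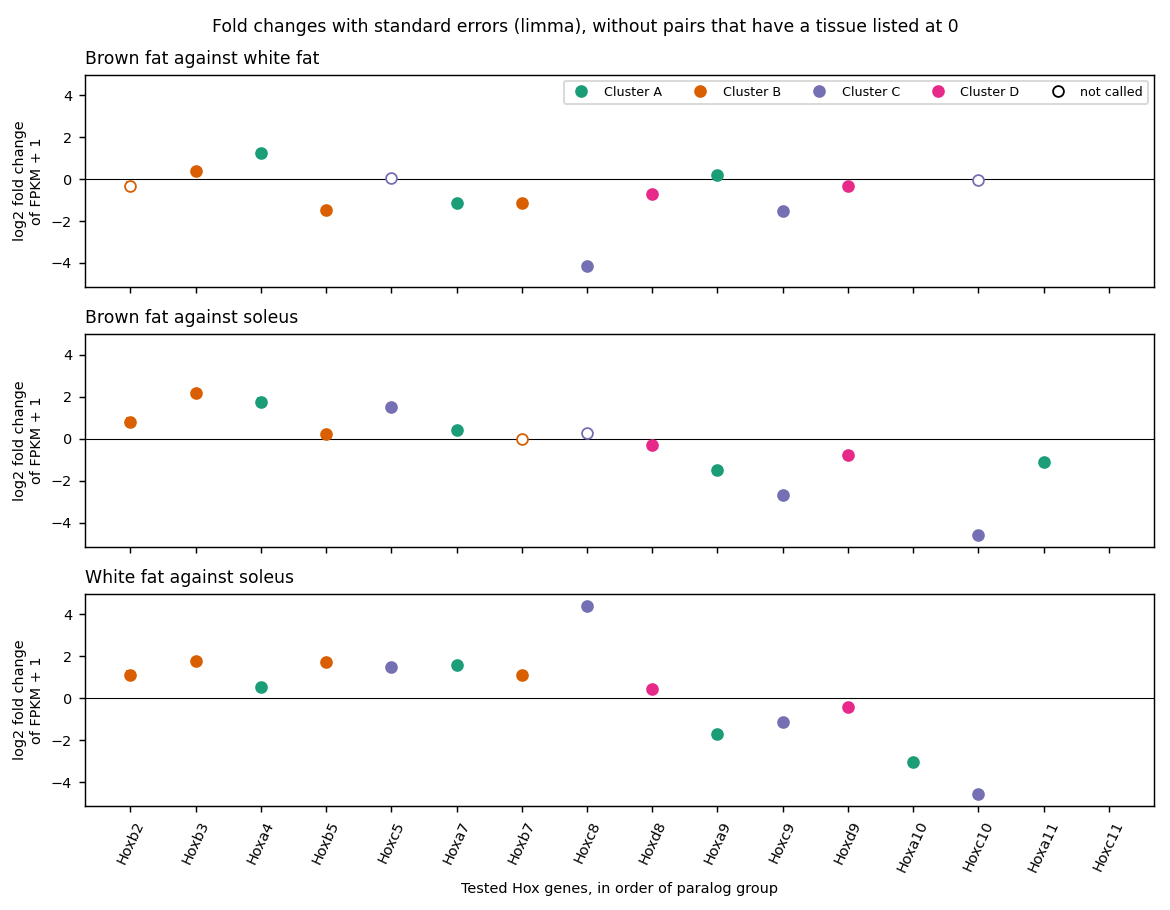
Points are log2 fold changes of FPKM + 1 with standard errors, mostly smaller than the symbols, for tested Hox genes in order of paralog group, coloured by cluster and open where not called. Pairs with a tissue listed at 0 have no point. Against soleus, points of groups 1 to 5 lie above 0 for both fats and those of groups 10 and 11 below 0, and Hoxc8 is at -4.13 in brown against white fat and at 4.40 in white fat against soleus.

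Among groups 1 to 5, the genes of the head end of the clusters, 10 were found and 6 tested. Against soleus, all 6 tested genes were called higher in brown fat, as were 52.9% of all tested genes, and all 6 in white fat, as were 54.5%. Hoxc5 was the only one of the 6 to reach 1 FPKM in soleus, so the others entered the tests through the fats. Brown fat exceeded white fat in 3, among them Hoxb3 and Hoxa4, 1 was lower (Hoxb5) and 2 were not called (Hoxb2, Hoxc5).

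Hoxa4, of the neck region of the skeleton, had 4.81, 2.97 and 5.80 FPKM in brown fat, 1.61, 1.12 and 1.19 in white fat, with 0.486, 0.499 and 0.854 in soleus. The 3 tissues did not overlap, with brown fat highest and soleus lowest, and brown fat replicate 2 was the lowest of its tissue. It was the only tested Hox gene called with a fold change of at least 1 log2 unit in brown fat against both other tissues, at 1.23 ± 0.18 (SE) against white fat (adjusted p = 9.7e-05) and 1.75 ± 0.18 against soleus (adjusted p = 4.4e-06). In white fat against soleus its change was 0.52 ± 0.18 (adjusted p = 0.019), and this call ended under 5 settings, with adjusted p-values of 0.11 with a pseudocount of 5, 0.074 without a filter, and 0.054, 0.12 and 0.47 under upper quartile, median of ratios and quantile scaling. It also ended without white fat replicate 1 (0.071), soleus replicate 1 (0.062) or soleus replicate 2 (0.064). Reads of Hoxa4 are uncertain, since the span of Hoxa3 overlaps it in the RefSeq table and the library kit does not mark strand.

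Hoxb3, which acts with Hoxa3 in the hindbrain and the pharyngeal arches, had 5.10, 4.92 and 4.36 FPKM in brown fat, 3.46, 3.23 and 3.60 in white fat, with 0.310, 0.338 and 0.240 in soleus. Both fats stood far above soleus, and brown fat above white fat without overlap. Against soleus its log2 fold change was 2.16 ± 0.07 in brown fat (adjusted p = 6.4e-10) and 1.77 ± 0.07 in white fat (adjusted p = 2.8e-09). Against white fat, brown fat was at 0.39 ± 0.07 (adjusted p = 0.00080), but -0.10 (adjusted p = 0.38) with TPM scaling, so its direction between the fats depends on scaling. The span of Hoxb3 overlaps that of Hoxb4, so its reads are uncertain. Hoxa3 did not pass the filter, with 0.499, 0.614 and 0.627 FPKM in brown fat, 0.326, 0.408 and 0.386 in white fat, against 0.158, 0.0966 and 0.0832 in soleus, the same order as its paralog Hoxb3. With a filter of 0.1 FPKM it was called higher in brown than in white fat (0.20 ± 0.05, adjusted p = 0.0060). The span of Hoxa3 overlaps that of Hoxa4, which had the same order of tissues at a higher level, so reads of Hoxa3 are uncertain too.

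Hoxb2, a hindbrain gene, had 1.03, 0.595 and 1.20 FPKM in brown fat, 2.04, 0.905 and 1.34 in white fat, with 0.105, 0.241 and 0 in soleus. The fats overlapped and soleus lay below both. It was called higher in brown fat against soleus (0.79 ± 0.17, adjusted p = 0.0014) and in white fat against soleus (1.10 ± 0.17, adjusted p = 0.00011), and not in brown against white fat (-0.31 ± 0.17, adjusted p = 0.13). That last value was called lower with TPM scaling (-0.93, adjusted p = 0.0095) and without white fat replicate 2 (adjusted p = 0.023), and it was 0.057 under quantile scaling.

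Group 5 held 2 tested genes whose tissue order differed. Hoxb5, which in the mouse sets the position of the shoulder, had 0.417, 0.328 and 0.420 FPKM in brown fat, 2.82, 2.83 and 3.09 in white fat, with 0.152, 0.289 and 0.138 in soleus. White fat stood apart and its mean was 7.50 times that of brown fat (log2 fold change -1.50 ± 0.07 in brown against white fat, adjusted p = 2.1e-08). White fat was also above soleus (1.72 ± 0.07, adjusted p = 3.4e-09). Brown fat was called above soleus at 0.22 ± 0.07 (adjusted p = 0.018), a call that ended with a pseudocount of 5 (0.077), with upper quartile (0.10) and median of ratios (0.15) scaling, and without brown fat replicate 1 or 3 or soleus replicate 1 or 3 (0.053 to 0.056). Its paralog Hoxc5 had 4.62, 6.30 and 6.08 FPKM in brown fat, 6.17, 5.03 and 5.31 in white fat, with 1.31, 1.38 and 1.33 in soleus. The fats overlapped, and both lay above soleus, by 1.50 ± 0.11 (adjusted p = 2.0e-07) in brown fat and 1.47 ± 0.11 (adjusted p = 1.8e-07) in white fat. Brown against white fat gave 0.03 ± 0.11 (adjusted p = 0.82), whose sign turned with scaling, to -0.53 with TPM (adjusted p = 0.0021) and -0.066 with upper quartile scaling.

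Groups 6 to 9, the trunk genes, held 9 found and 7 tested genes, none of them of group 6. Between brown and white fat, 6 of the 7 were lower in brown fat and 1 (Hoxa9) was higher, beside 34.8% and 38.0% of all tested genes. In brown fat against soleus 1 was higher and 4 were lower (all genes 52.9% and 25.6%), and in white fat against soleus 4 were higher and 3 lower (all genes 54.5% and 29.7%). Of all tested Hox genes, 4 were called with at least 1 log2 unit in white fat over both other tissues, Hoxa7, Hoxb5, Hoxb7 and Hoxc8, and 3 of these belong to groups 7 and 8. Hoxb5 and Hoxb7 reached 1 FPKM in white fat alone, so the filter admitted them through that tissue. Hoxc9 reached it in white fat and soleus and not in brown fat, so it too entered through tissues where it was high.

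Hoxc8, which specifies trunk vertebrae and, in mouse progenitors of white fat, is known as a repressor of the brown fat programme targeted by the microRNA miR-196a, was the highest Hox gene of white fat. It had 1.30, 1.42 and 1.47 FPKM in brown fat, 44.5, 38.5 and 39.9 in white fat, with 1.51, 0.768 and 0.776 in soleus. White fat stood above every library of the other tissues, with a mean 29.3 times that of brown fat and 40.2 times that of soleus. The log2 fold change was -4.13 ± 0.13 in brown against white fat (adjusted p = 1.3e-09) and 4.40 ± 0.13 in white fat against soleus (adjusted p = 1.9e-10). Brown fat and soleus overlapped through soleus replicate 1, which also had the highest white fat marker sum of soleus at 117 FPKM, and that marker's part in the result was not tested. Their difference was 0.27 ± 0.13 (adjusted p = 0.076), and without that library it was called, at 0.43 (adjusted p = 0.0010), as it was with array weights (adjusted p = 0.039). Its paralog Hoxb8 was below the filter, with 0.353, 0.250 and 0.215 FPKM in brown fat, 0.589, 0.454 and 0.721 in white fat, with at most 0.0877 in soleus. With a filter of 0.1 FPKM Hoxb8 was lower in brown than in white fat (-0.32 ± 0.07, adjusted p = 0.0017).

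Hoxd8, the tested paralog of cluster D, had 2.62, 2.50 and 2.49 FPKM in brown fat, 4.62, 4.42 and 5.23 in white fat, with 2.86, 3.29 and 3.81 in soleus. White fat was highest and brown fat lowest, without overlap, but the spread between tissues was small next to that of Hoxc8. Brown fat was lower than white fat (-0.70 ± 0.09, adjusted p = 3.9e-05) and than soleus (-0.28 ± 0.09, adjusted p = 0.015), the second not without soleus replicate 3 (adjusted p = 0.057). White fat was higher than soleus (0.42 ± 0.09, adjusted p = 0.0013), but not with median of ratios (0.44) or quantile scaling (0.62).

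Group 7 genes Hoxa7 and Hoxb7, which pattern the ribs, were both highest in white fat. Hoxa7 had 4.15, 4.27 and 3.34 FPKM in brown fat, 11.0, 8.79 and 9.69 in white fat, with 2.93, 2.46 and 2.61 in soleus. Hoxb7 had 0.527, 0.862 and 0.771 FPKM in brown fat, 2.84, 2.68 and 2.94 in white fat, with 0.995, 0.555 and 0.721 in soleus. Brown fat and soleus overlapped for Hoxb7 and not for Hoxa7. In brown against white fat the log2 fold change was -1.14 ± 0.10 for Hoxa7 (adjusted p = 2.0e-06) and -1.15 ± 0.10 for Hoxb7 (adjusted p = 2.2e-06), that is, white fat means 2.51 and 3.91 times those of brown fat. In white fat against soleus it was 1.56 ± 0.10 (adjusted p = 8.3e-08) and 1.13 ± 0.10 (adjusted p = 1.6e-06). In brown fat against soleus Hoxa7 was higher at 0.42 ± 0.10 (adjusted p = 0.0029), a call that ended under upper quartile (0.15), median of ratios (0.47) and quantile scaling (0.22), and Hoxb7 gave -0.03 ± 0.10 (adjusted p = 0.81).

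The 3 tested genes of group 9 were highest in soleus, through which alone Hoxa9 and Hoxd9 passed the filter, and Hoxb9, which did not pass, was highest in white fat. Hoxc9, which sets thoracic identity of motor neurons, had 0, 0.0558 and 0.0294 FPKM in brown fat, 2.04, 2.03 and 1.87 in white fat, with 5.42, 5.97 and 5.57 in soleus. The tissues did not overlap, and the brown fat values were near 0. Its log2 fold change was -1.54 ± 0.07 in brown against white fat (adjusted p = 8.3e-09), -2.69 ± 0.07 in brown fat against soleus (adjusted p = 4.9e-11) and -1.16 ± 0.07 in white fat against soleus (adjusted p = 2.9e-08). Hoxc8 and Hoxc9, neighbours in cluster C, thus differed in which tissue was highest.

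Hoxa9, which acts in limb position and in blood progenitors, had 0.186, 0.276 and 0.241 FPKM in brown fat, 0.0771, 0.0458 and 0.0857 in white fat, with 2.31, 2.43 and 2.82 in soleus. Brown fat was above white fat without overlap, the reverse of Hoxc9. Brown against white fat gave 0.21 ± 0.07 (adjusted p = 0.026), a call that ended with a pseudocount of 5 (0.16) and without white fat replicate 2 (0.062), brown fat replicate 2 (0.085) or brown fat replicate 3 (0.062). Against soleus it was lower in brown fat (-1.51 ± 0.07, adjusted p = 9.6e-09) and in white fat (-1.72 ± 0.07, adjusted p = 3.1e-09). Hoxd9, of the lower trunk and limbs, had 0.160, 0.292 and 0.216 FPKM in brown fat, 0.506, 0.444 and 0.661 in white fat, with 1.18, 1.04 and 1.02 in soleus. Brown fat was lowest and soleus highest without overlap, with -0.33 ± 0.08 in brown against white fat (adjusted p = 0.0029, but 0.53 under quantile scaling), -0.77 ± 0.08 in brown fat against soleus (adjusted p = 4.1e-06) and -0.44 ± 0.08 in white fat against soleus (adjusted p = 0.00030). Hoxb9 was not tested, and its highest value was 0.320 FPKM, in white fat replicate 1.

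Groups 10 to 13, which pattern the lumbar and sacral region and the limbs, held 12 found and 4 tested genes. All 4 were called lower in brown fat against soleus (25.6% of all genes) and in white fat against soleus (29.7%), and none differed by the test between brown and white fat, where their values were 0 or near 0. These 4 passed the filter through soleus alone.

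Hoxc10, known from lumbar motor neurons and the hind limb, was the highest Hox gene of soleus, with 0, 0.0288 and 0 FPKM in brown fat, 0, 0.0260 and 0.0508 in white fat, with 21.2, 24.5 and 25.5 in soleus. Every soleus library lay above every fat library. The log2 fold change was -4.61 ± 0.08 in brown fat against soleus (adjusted p = 3.5e-12) and -4.59 ± 0.08 in white fat against soleus (adjusted p = 3.9e-12). Hoxc11, of the hind limb, was listed at 0 in all 6 fat libraries and had 6.38, 6.69 and 7.49 FPKM in soleus (adjusted p = 3.3e-11 against brown fat and 3.9e-11 against white fat), and no fold is given against a tissue at 0. Brown fat replicate 2, the only brown library with Hoxc10 or Hoxa11 above 0, also had the highest fast muscle marker sum of brown fat, at 220 FPKM, and its part in these values was not tested.

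Hoxa10, of the lumbar vertebrae and the reproductive tract, had 0 in all 3 brown fat libraries, 0, 0 and 0.0378 FPKM in white fat, with 6.87, 8.93 and 6.73 in soleus. It was called lower in brown fat (adjusted p = 2.4e-10) and in white fat (log2 fold change -3.06 ± 0.09, adjusted p = 3.0e-10) against soleus. Hoxa11, which shapes the limb's middle segment, had 0, 0.0123 and 0 FPKM in brown fat, 0 in all 3 white fat libraries, with 1.20, 1.20 and 1.21 in soleus. It was called lower in brown fat (-1.13 ± 0.06, adjusted p = 1.5e-08) and in white fat (adjusted p = 1.2e-08) against soleus. Hoxa11 overlaps an antisense gene, and without strand its reads cannot be told from that gene's. Hoxa13, which acts at the ends of the limbs, was not tested, with 0 in all 6 fat libraries and 0.697, 0.614 and 0.517 FPKM in soleus. Hoxd10 had 0 in brown fat, at most 0.0862 FPKM in white fat, with 0.226, 0.237 and 0.135 in soleus, and its span overlaps Hoxd11.

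**Figure D4:**
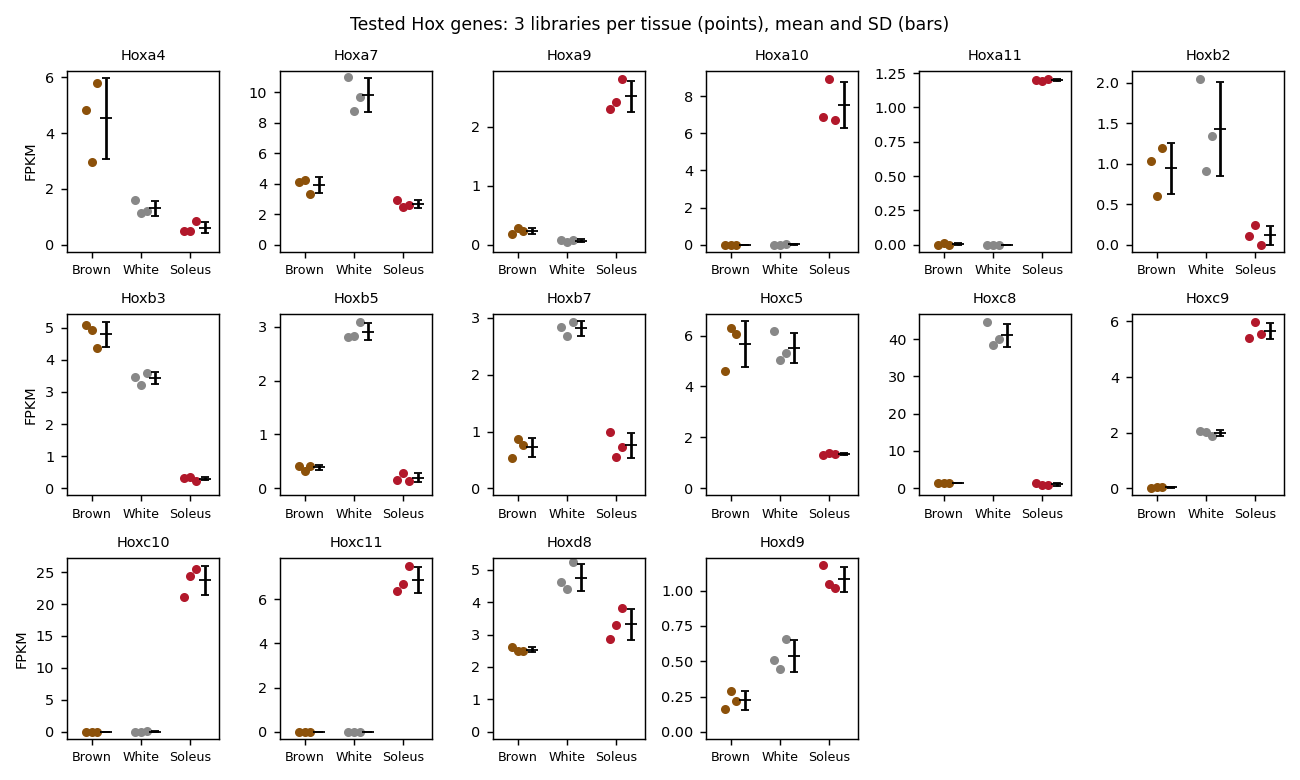
Each panel is a tested Hox gene, with FPKM from 0 on its own scale, points for the 3 libraries of brown fat, white fat and soleus, and a bar for the mean with SD. Hoxa4 and Hoxb3 step down in that order, Hoxc8 stands up in white fat at 38.5 to 44.5 FPKM, and Hoxa10, Hoxa11, Hoxc10 and Hoxc11 lie at or near 0 in both fats.

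Pbx, Meis and Pknox genes encode TALE homeodomain proteins, the partners that bind DNA together with Hox proteins. Of 8 tested, 1 was higher and 4 were lower in brown against white fat (median log2 fold change -0.26), 3 were higher and 2 lower in brown fat against soleus (0.06), and 6 were higher and 1 lower in white fat against soleus (0.69). That is 5, 5 and 7 of 8 called, beside 72.8%, 78.5% and 84.2% of all tested genes, whose medians were 0.03, 0.29 and 0.35. Meis3 averaged 0.479, 3.28 and 0.687 FPKM in brown fat, white fat and soleus, and was lower in brown than in white fat (-1.52 ± 0.12, adjusted p = 5.3e-07) and higher in white fat than in soleus (1.34 ± 0.12, adjusted p = 8.4e-07). Meis2 averaged 2.36, 2.50 and 0.0717 FPKM, not called between the fats (-0.06 ± 0.07, adjusted p = 0.50), and was higher in brown fat (1.65 ± 0.07, adjusted p = 3.8e-09) and white fat (1.71 ± 0.07, adjusted p = 2.7e-09) against soleus. Pknox2 averaged 0.0886, 0.510 and 7.48 FPKM and was lower than in soleus in brown fat (-2.96 ± 0.08, adjusted p = 1.3e-10) and in white fat (-2.49 ± 0.08, adjusted p = 5.0e-10). Meis3 reached 1 FPKM in white fat alone and Pknox2 in soleus alone, so each entered the tests through the tissue where it was high. Pbx2 averaged 10.1, 8.65 and 4.35 FPKM in the same order, the highest of the list in both fats and below Pknox2 in soleus, and was higher in both fats than in soleus, by 1.06 ± 0.08 (adjusted p = 4.1e-07) and 0.85 ± 0.08 (adjusted p = 2.0e-06).

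Polycomb complex 1 and Trithorax genes, whose proteins keep Hox clusters repressed or active, gave 14 tested genes. In brown against white fat 6 were higher and 3 lower (median 0.10), in brown fat against soleus 7 were higher and 3 lower (0.32), and in white fat against soleus 7 were higher and 3 lower (0.20). Called in all were 9, 10 and 10 of 14, again beside 72.8%, 78.5% and 84.2% of all tested genes, with medians of 0.03, 0.29 and 0.35. Cbx8, a chromodomain subunit, was higher in brown than in white fat (4.61 and 2.85 FPKM, 0.55 ± 0.13, adjusted p = 0.0033). Men1, a partner of Trithorax methyltransferases, averaged 8.72, 6.32 and 2.02 FPKM, higher in brown fat than in soleus by 1.69 ± 0.09 (adjusted p = 1.7e-08) and in white fat than in soleus by 1.27 ± 0.09 (adjusted p = 1.3e-07). Phc3, a Polycomb subunit, was lower in brown than in white fat (2.83 and 4.17 FPKM, -0.43 ± 0.07, adjusted p = 0.00024), as was its paralog Phc1 (2.91 and 3.71 FPKM, -0.27 ± 0.08, adjusted p = 0.0096). Rnf2, the ubiquitin ligase of the complex, was lower in brown fat than in soleus (-0.35 ± 0.08, adjusted p = 0.0019), and Wdr5, a Trithorax core subunit, lower in white fat than in soleus (-0.30 ± 0.08, adjusted p = 0.0035). Ash2l, a core subunit of Trithorax complexes, was lower in brown fat (-0.57 ± 0.09, adjusted p = 0.00015) and in white fat (-0.38 ± 0.09, adjusted p = 0.0024) than in soleus. Phc2 averaged 19.1, 14.5 and 10.4 FPKM, the highest of the list in both fats, whereas Ash2l had the highest mean in soleus.

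Among 8 tested genes flanking the clusters, 6 were higher and 1 lower in brown against white fat (median 0.61), 6 were higher and 1 lower in brown fat against soleus (0.77), and 4 were higher and 3 lower in white fat against soleus (0.26). Of all tested genes 38.0%, 52.9% and 54.5% were higher and 34.8%, 25.6% and 29.7% lower in these comparisons, with medians of 0.03, 0.29 and 0.35. Snx10, beyond the head end of cluster A, averaged 80.3 FPKM in brown fat, 22.0 in white fat, with 2.03 in soleus. It was higher in brown than in white fat by 1.83 ± 0.14 (adjusted p = 7.4e-07), and higher than in soleus by 4.74 ± 0.14 in brown fat (adjusted p = 2.4e-10) and 2.91 ± 0.14 in white fat (adjusted p = 9.8e-09). Its neighbour Skap2 averaged 32.7 FPKM in brown fat, 18.7 in white fat, with 1.74 in soleus, and exceeded soleus by 3.62 ± 0.07 in brown fat (adjusted p = 8.3e-12) and 2.85 ± 0.07 in white fat (adjusted p = 5.2e-11). Hibadh, an enzyme of valine breakdown at the other side of that cluster, had the highest mean of the list in each tissue, 351, 126 and 76.4 FPKM. Beside cluster D, Mtx2, of the mitochondrial outer membrane, averaged 99.4, 23.8 and 46.3 FPKM, higher in brown than in white fat by 2.02 ± 0.10 (adjusted p = 2.0e-08) and lower in white fat than in soleus (-0.93 ± 0.10, adjusted p = 5.2e-06). On the other side of cluster D, Lnpk averaged 0.986, 1.19 and 6.27 FPKM, lower than in soleus in brown fat (-1.87 ± 0.08, adjusted p = 5.7e-09) and in white fat (-1.74 ± 0.08, adjusted p = 8.8e-09). Cbx5, beside cluster C, was lower in brown than in white fat (-0.38 ± 0.06, adjusted p = 0.00031). Evx1 and Evx2, the homeobox genes at the tail ends of clusters A and D, were listed at 0 in all 9 libraries. The 5 microRNA genes found inside the clusters, Mir196a-1, Mir196a-2, Mir196b, Mir10b and Mir615, were also listed at 0 in all 9, and a kit for long RNA does not measure mature microRNAs. Of 9 caudal type and anterior homeobox genes, none passed the filter and 7 were listed at 0 in all 9 libraries.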

How the data were processed

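Brown fat, white fat and soleus of wild-type mice were profiled by RNA-seq, 3 libraries each. Per the labels' protocols, TRIzol was used for total RNA and the TruSeq RNA kit, version 2, for the libraries. TopHat 1.4.1 and Cufflinks 2.0.1 were used on mouse build mm9, per the submitters' processing notes. The authors deposited 1 matrix of FPKM values with 18401 rows named by RefSeq accessions. Its counting of overlapping or antisense genes is not given in the sources used here.

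A RefSeq gene table gave the symbols of 18305 rows, and GENCODE those of 38 more. The 55 rows with no symbol and 3 with several, holding 0.0339% to 0.360% of a library's FPKM, were left out, and 541 symbols with several rows were summed, giving 17753 genes. RefSeq promoter windows, from build GRCm38.p6, were used for sequence only, since the files use another build, and 16 of the 31 Hox genes matched.

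Relative depth was read from the steps of low values, and 35 of 36 pairs of libraries lay within 0.03 log2 units of a single set of depths. Read totals are unknown, so no counting intervals are given. The 9913 genes that reached 1 FPKM in 3 or more libraries were fitted on log2(FPKM + 1) with limma 3.58.1 under R 4.3.3, all 9 libraries together, allowing the variance to follow mean expression (6 residual degrees of freedom). Tests were two-sided, with Benjamini-Hochberg adjustment within each comparison. The fit was tested on simulated data. A level of 0.1 FPKM served as the looser filter.

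The Hox genes, the gene lists and the cell type markers were chosen with earlier results of these data known. Hox genes past the filter are named, as are those below it that averaged 0.5 FPKM or more in any tissue. From each list, up to 2 called genes per direction with the largest change in a comparison and the member with the highest mean are named. Hoxb4, Hoxb9 and Hoxd10 were named after their values were seen. Alternatives covered the pseudocount, the filter, TPM, upper quartile, median of ratios and quantile scaling, the variance model, array weights, the replicate number as a block, the libraries in the fit, the summing of rows and each library left out. Protein sequences were not used here. A few genes are not reported here by name, and the counts and sums include them.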

Additional observations from a re-analysis of the deposited data

How the results depend on the processing

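For tested Hox genes, the direction and call of 47 pairs of gene and comparison were recomputed under 22 alternatives; the 4 tested genes of groups 10 to 13 were left out between the fats, where every value was under 0.1 FPKM. Of these values, 993 kept direction and side of the threshold, 26 kept direction and were no longer called, 4 kept direction and became called, and 11 changed sign, among them Hoxb3 with TPM scaling, which also lost its call, and Hoxc5 with TPM scaling, which became called. Counts of Hox genes called in each direction, and of all genes called in either direction, stayed within 1.5 times their reported values under the alternatives run. Counts of all genes in 1 direction moved further in 4 cases. With TPM scaling, 1795 genes were higher and 6133 lower in brown against white fat (reported 3769 and 3446), and 1869 were lower in white fat against soleus (reported 2948). With median of ratios scaling, 4004 were lower in brown fat against soleus (reported 2535). The changes of sign were all near 0 or tied to scaling. In brown against white fat, Hoxb3 was -0.10 and Hoxc5 -0.53 with TPM scaling, Hoxc5 was -0.066 with upper quartile scaling and from -0.040 to 0.15 with each library left out, and Hoxb2 was 0.057 with quantile scaling. In brown fat against soleus, Hoxb7 was 0.0021 with quantile scaling, 0.022 with array weights and from -0.11 to 0.067 with each library left out. Same-numbered libraries of different tissues did not deviate together (correlations from -0.22 to 0.08, none of 9 over 0.1). Pairs with different numbers gave -0.19 to 0.36. With 3 libraries per tissue, deviations from a tissue mean cannot show which libraries share a mouse, so the pairing stays unknown. In a fit with the replicate block, 7017, 7628 and 8252 genes were called in brown against white fat, brown fat against soleus and white fat against soleus (7215, 7781 and 8351 without it), no Hox call changed, and Hox calls were 4, 7 and 10 higher and 7, 8 and 7 lower. Depth limits values near 0, where a few fragments separate a listed 0 from a low value, and 14 Hox genes below the filter have no call.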

Other observations

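Hoxb4 was listed at 0 in 8 of 9 libraries and at 0.979 FPKM in brown fat replicate 3. Its span lies in an overlap with Hoxb3, which had 4.36 FPKM in that library and 3.23 to 5.10 FPKM in the other fat libraries.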
